A study of Mus musculus with 4 samples.

Results

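A set of 10 genes of the IL-1, IL-6 and TNF inflammatory cytokine systems was followed through the aged mouse lung. They were taken by symbol from the feature lists of the count matrices, where all 10 of 10 were found among 31054 features. They were the ligands Il1a, Il1b, Il18, Tnf, Il6 and Osm, the IL-1 receptor antagonist Il1rn, the decoy receptor Il1r2, and the receptors Il1r1 and Il6ra. Lungs came from male C57BL/6 mice aged 19 months at the start of dosing, which were given BPTES, an inhibitor of the glutaminase GLS1, or its vehicle DMSO for 1 month. Each group had 2 libraries, and the labels do not say whether the 2 came from separate animals, so the p-values measure only the spread between these libraries. No untreated and no young lungs were analysed here. Per the labels' protocols, lung cells were digested, sorted for CD45, the pan-leukocyte surface protein, and mixed again in fixed numbers of CD45-negative and CD45-positive cells. Shares of a gene's transcripts held by a cell class therefore describe that mixture and not the intact lung.

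IL-1 alpha and IL-1 beta signal through the receptor encoded by Il1r1 with its partner Il1rap, and are opposed by the antagonist Il1rn and by Il1r2, which binds ligand without signaling. IL-1 beta and IL-18 are made as precursors that need cleavage, for which the NLRP3 inflammasome and caspase-1 are the best known route, so their RNA does not measure the secreted cytokine. IL-6 binds Il6ra and then the shared chain Il6st, and oncostatin M (Osm) uses Il6st with Osmr or Lifr. In lung, myeloid cells are the classic producers of IL-1 and TNF, and fibroblasts and endothelium are classic responders.

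The 4 libraries held 260346570 to 342107092 unique molecular identifiers (UMIs, counted transcripts) in all deposited barcodes. After filtering, 63895 cells were kept, with a median of 13920.5 to 15762.5 UMIs per cell by library. Between 57 and 92 barcodes were shared by any 2 libraries. Cells fell into 37 clusters, which were made without the 10 genes and without their 45 pathway genes. Names rest on RNA markers alone and end in "-like", and 5 clusters with 6804 cells (10.6%) stayed unnamed. Of 26 named classes, 21 had at least 20 cells in every library and were tested. Levels are CPM, the summed UMIs of a class rescaled to a common total with TMM library sizes. Levels of different genes are not ranked against each other.

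The promoter windows of Il1b, Il1a, Il6 and Tnf, the best known ligands of the set, are shown first, so that their motifs can be set beside the cells in which each was read. Each line gives the 250 bases before the RefSeq transcription start (GRCm38.p6), 5' to 3' on the gene's strand, with capitals marking a TATAAA box, an AP-1 motif (TGANTCA) or a kappa-B motif, each searched on both strands.
Il1b, chr2:129371140-129371389, minus strand: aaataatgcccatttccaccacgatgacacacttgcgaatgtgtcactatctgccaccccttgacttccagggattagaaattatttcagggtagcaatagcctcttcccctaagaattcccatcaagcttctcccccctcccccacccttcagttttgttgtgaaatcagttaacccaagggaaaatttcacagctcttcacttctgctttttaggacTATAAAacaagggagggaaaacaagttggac
Il1a, chr2:129309973-129310222, minus strand: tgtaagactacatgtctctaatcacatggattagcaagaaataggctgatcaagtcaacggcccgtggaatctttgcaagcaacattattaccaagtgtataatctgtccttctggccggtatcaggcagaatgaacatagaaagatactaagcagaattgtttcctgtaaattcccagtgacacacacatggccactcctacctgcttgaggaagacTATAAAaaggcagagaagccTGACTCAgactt
Il6, chr5:30012864-30013113, plus strand: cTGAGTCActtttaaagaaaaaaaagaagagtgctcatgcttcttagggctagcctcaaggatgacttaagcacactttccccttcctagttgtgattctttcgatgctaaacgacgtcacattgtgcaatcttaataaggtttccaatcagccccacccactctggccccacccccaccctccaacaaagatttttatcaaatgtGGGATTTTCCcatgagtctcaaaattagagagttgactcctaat
Tnf, chr17:35202008-35202257, minus strand: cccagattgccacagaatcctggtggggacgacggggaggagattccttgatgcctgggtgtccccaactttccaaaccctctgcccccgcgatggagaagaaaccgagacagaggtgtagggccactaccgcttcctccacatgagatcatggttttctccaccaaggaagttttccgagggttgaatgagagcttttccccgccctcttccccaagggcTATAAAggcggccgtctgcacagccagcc
The windows of Il1b and Tnf held a TATAAA box 31 and 29 bases before the start. The window of Il1a held a TATAAA box at 32 bases and an AP-1 motif at 12 bases before the start. The window of Il6 held an AP-1 motif at its far end and a kappa-B motif at 44 bases before the start. Among 32851 mouse windows of the same length, 12.4% held the TATAAA box, 6.75% the AP-1 motif and 7.25% the kappa-B motif. These are letter matches within 250 bases and describe no binding. Windows were matched for 9 of the 10 genes.

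Il1b, the gene of IL-1 beta, was a myeloid transcript, and neutrophil-like cells were its main holder. It lies on mouse chromosome 2 at 129364570 to 129371139 (mm10, minus strand) and overlaps the antisense gene Il1bos. Neutrophil-like cells held 48.2% of all Il1b UMIs (40.9% to 61.8% by library), and an unnamed cluster, cluster 27, held a further 12.9% to 16.4% by library. Cluster 27 had 621 cells, was led by Ccl3, Ccl4, Acod1 and Hdc, and carried S100a8, Csf3r and Nlrp3 among its leading genes. The 6 myeloid classes and cluster 27 together held 98.6% of Il1b UMIs. The mean level was 13287 CPM in neutrophil-like cells, with libraries from 10899 to 15250. It was 1865 CPM in interstitial macrophage-like cells, 1383 in cDC2-like cells, 1257 in classical monocyte-like cells and 1227 in non-classical monocyte-like cells, and the libraries of these 4 classes overlapped from each to the next. Alveolar macrophage-like cells came next at 295 CPM, and the 12 non-immune classes ran from 6.56 to 32.0 CPM. After every cell was thinned to 3000 UMIs, 99.8% or more of the neutrophil-like cells in each library had an Il1b UMI. The share was 1.81% to 3.18% in general capillary endothelium-like cells, which should lack the gene, so values of this size can be background.

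Il1a, the gene of IL-1 alpha, was also read in a non-immune class. Over the 4 libraries summed, aerocyte endothelium-like cells held 23.6% of its UMIs, interstitial macrophage-like cells 18.0%, neutrophil-like cells 14.2%, and alveolar macrophage-like and cDC2-like cells 12.2% each. The order differed between libraries. Aerocyte-like cells held 16.9% to 28.4% and ranked first in 3 of 4, while in the second BPTES library interstitial (23.4%) and alveolar macrophage-like cells (18.3%) held more. Neutrophil-like cells ran from 10.4% to 22.9% and alveolar macrophage-like cells from 2.79% to 18.3%. Aerocytes are the specialized capillary cells that cover the gas-exchange surface. Their Il1a level was 46.6 and 40.7 CPM with BPTES and 51.0 and 49.6 CPM with DMSO, and was not called (log2 fold change -0.20, edgeR adjusted p = 0.577). The other 4 endothelial classes were all below 2 CPM, with 1.43 CPM in general capillary endothelium-like cells. Thinned shares of cells with an Il1a UMI were 11.3%, 9.29%, 10.46% and 9.69% by library in aerocyte-like cells, against 0.238% to 0.518% in general capillary endothelium-like cells. Aerocyte-like, alveolar macrophage-like (54.5 CPM) and interstitial macrophage-like cells (40.6 CPM) overlapped in level.

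Il18 was highest in alveolar macrophage-like cells at 356 CPM, with libraries from 297 to 431 and no overlap with any other tested class. Among the tested classes, neutrophil-like cells followed at 44.5 CPM and classical monocyte-like cells at 36.6 CPM. Mesothelial-like cells, which were not tested, held 5.50% of Il18 UMIs over all libraries and 20.3% in the first DMSO library. Alveolar macrophage-like cells held 29.4% and 14.9% of Il18 UMIs in the same order. The gene overlaps Bco2 and Tex12 on the opposite strand. Tnf was highest among the tested classes in interstitial macrophage-like cells (84.0 CPM), and its libraries overlapped those of alveolar macrophage-like cells (50.0 CPM). It was also read in another unnamed cluster, cluster 18, at 106 CPM. Cluster 18 was led by Il23r, Cd163l1 and Trdc and included Il17a among its leading genes.

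Il6 was a fibroblast transcript in these lungs. The fibroblast classes (3 in number) held 92.8% of its UMIs, and the myeloid classes with cluster 27 held 1.84%. Adventitial fibroblast-like cells had the highest level, at 626 and 610 CPM with BPTES and 724 and 565 CPM with DMSO. Alveolar fibroblast-like cells followed at 261 CPM, and peribronchial fibroblast or myofibroblast-like cells (176 CPM) and pericyte-like cells (147 CPM) overlapped. Within the alveolar fibroblast-like class, 2 clusters lay apart in Il6, which had no part in the clustering. Cluster 5 had 513 and 558 CPM with BPTES and 378 and 517 CPM with DMSO, and cluster 1 had 121, 121, 155 and 160 CPM in the same order. Thinned shares of adventitial fibroblast-like cells with an Il6 UMI were 50.2%, 48.9%, 50.4% and 43.9%, against 0.554% to 1.03% in general capillary endothelium-like cells.

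Osm, a cytokine of the IL-6 family, was myeloid, and the myeloid classes with cluster 27 held 96.4% of its UMIs. Classical monocyte-like cells alone held 45.1%. Neutrophil-like (190 CPM), classical monocyte-like (174 CPM) and alveolar macrophage-like cells (151 CPM) overlapped in level, and interstitial macrophage-like cells were lower at 52.6 CPM.

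**Figure D1:**
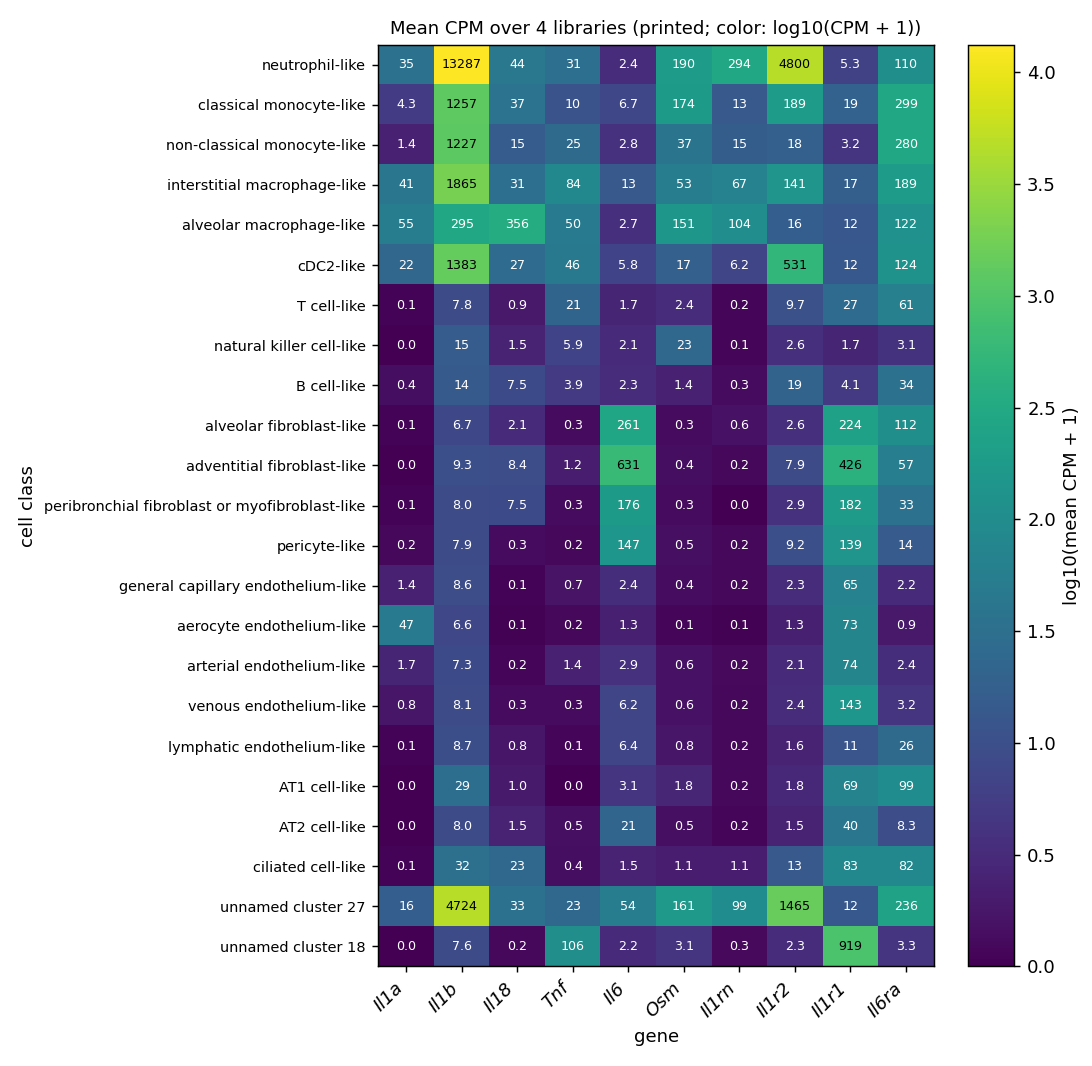
Mean level of each of the 10 genes (columns) in the 21 tested classes and 2 unnamed clusters (rows), over 4 libraries, printed in CPM and colored by log10(CPM + 1). Il1b peaks in neutrophil-like cells at 13287 CPM, Il6 in adventitial fibroblast-like cells at 631 CPM and Il18 in alveolar macrophage-like cells at 356 CPM.

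Inhibitors of IL-1 sat in the same cells as Il1b. Il1r2, the decoy receptor, had 4800 CPM in neutrophil-like cells and 531 CPM in cDC2-like cells, with no overlap between them. Neutrophil-like cells held 61.7% of its UMIs (56.1% to 69.5% by library). Il1rn had 294 CPM in neutrophil-like cells, above alveolar macrophage-like cells (104 CPM) and interstitial macrophage-like cells (67.1 CPM), and 48.8% of its UMIs were in neutrophil-like cells (39.7% to 63.3% by library). Over the mean levels of 21 classes on a log2(CPM + 1) scale, Il1b correlated with Il1rn at r = 0.91 and with Il1r2 at r = 0.89, where each class is a sum of the same 4 libraries. Among 14040 genes, those most like Il1b were Lrrc25 (r = 0.98), Nlrp3 (r = 0.98) and Rasgrp4 (r = 0.97). The nearest to Il6 were Col6a2 (r = 0.96), C4b (r = 0.96) and Podxl2 (r = 0.95), and the nearest to Osm were Fcgr3 (r = 0.98), Tyrobp (r = 0.97) and Fcer1g (r = 0.95).

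The signaling receptor Il1r1 was spread over the opposite set of cells. The 12 non-immune classes held 81.5% of its UMIs and the myeloid classes with cluster 27 held 1.82%. Among the tested classes, adventitial fibroblast-like cells were highest at 426 CPM, with libraries from 378 to 518. Alveolar fibroblast-like (224 CPM), peribronchial fibroblast or myofibroblast-like (182 CPM), venous endothelium-like (143 CPM) and pericyte-like cells (139 CPM) followed and overlapped from each to the next. Mesothelial-like cells were not tested, with 6 cells in the first BPTES library. They held 3.88% of Il1r1 UMIs over the 4 libraries and 13.6% in the first DMSO library. General capillary and aerocyte endothelium-like cells had 65.3 and 73.3 CPM. Cluster 18 had more than any tested class, at 838 and 959 CPM with BPTES and 955 and 924 CPM with DMSO. Il1rap, the partner chain, was highest in neutrophil-like cells (1030 CPM), where Il1r1 was only 5.26 CPM, and had 74.0 CPM in alveolar fibroblast-like cells.

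Il6ra, the ligand-binding IL-6 receptor, was highest in classical (299 CPM) and non-classical monocyte-like cells (280 CPM), which overlapped. Interstitial macrophage-like cells had 189 CPM and alveolar fibroblast-like cells 112 CPM. Adventitial fibroblast-like cells, the class highest in Il6, had 57.2 CPM. The shared chain Il6st was highest in venous endothelium-like cells (680 CPM), and Lifr in the same class (395 CPM). Osmr was highest in alveolar fibroblast-like cells (318 CPM), adventitial fibroblast-like cells (285 CPM) and lymphatic endothelium-like cells (278 CPM). The TNF receptors Tnfrsf1a and Tnfrsf1b were highest in neutrophil-like (407 CPM) and non-classical monocyte-like cells (403 CPM). Of the IL-18 receptor chains, Il18rap was highest in natural killer-like cells (914 CPM), which had 487 CPM of Il18r1.

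**Figure D2:**
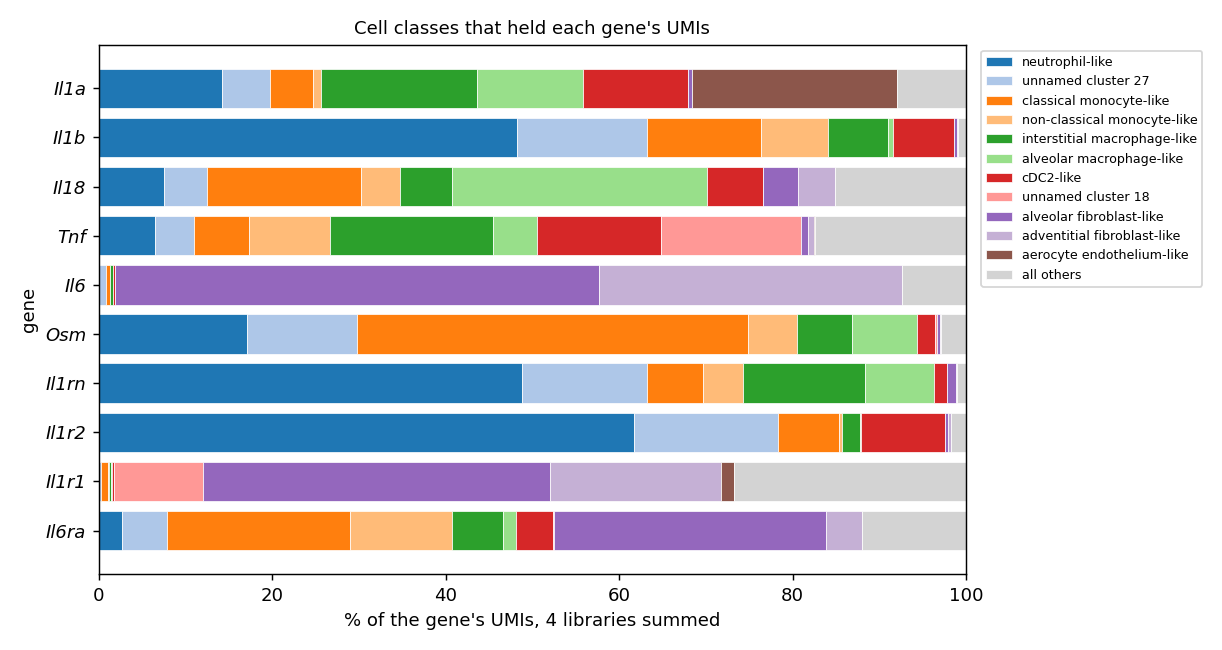
Share of each gene's UMIs (x axis, percent, 4 libraries summed) held by cell classes and unnamed clusters (colors), with the remaining classes in grey. Neutrophil-like cells hold 48.2% of Il1b and 61.7% of Il1r2, while fibroblast-like classes hold most of Il6 and Il1r1.

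BPTES was compared with DMSO within each class over summed UMIs. Of 210 gene and class pairs, 145 passed the filter on low counts, and 2 passed the test at an edgeR adjusted p under 0.05, adjusted over all genes of the class. Of these, 1 was lower and 1 was higher with BPTES. Over all genes in the 21 classes, 0.184% of 256860 tests were called, 155 higher and 317 lower. An unadjusted p under 0.05 was found in 32 of the 145 tests of the cytokine and receptor genes (22.1%) and in 12.6% of the tests over all genes. The groups did not overlap in 63 of the 145 (43.4%), beside 44.7% over all genes, so a lack of overlap was no more frequent here than elsewhere. With all cells of a library summed, none of the 10 genes was called by edgeR (0.0% of 21464 genes), 2 had an unadjusted p under 0.05, and DESeq2 called 1.

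Il1b fell in neutrophil-like cells. Its level was 12075 and 10899 CPM with BPTES and 15250 and 14924 CPM with DMSO, and the groups did not overlap. The log2 fold change was -0.39 (SE 0.06, edgeR adjusted p = 0.0205), in a class where 2.24% of 9146 genes were called, 1.67% lower and 0.569% higher. The call was lost under several other ways of drawing the class or filtering the cells. Cluster 27 had 5146 and 4420 CPM with BPTES and 4733 and 4595 CPM with DMSO, a log2 fold change of 0.04 (SE 0.09, edgeR adjusted p = 0.919). With cluster 27 added to the neutrophil-like cells, the change was -0.28 and the call was lost (edgeR adjusted p = 0.657). It was also lost at clustering resolutions 0.5 and 2 (edgeR adjusted p = 0.678 in both), with the 10 genes among the variable genes (0.675), with a mitochondrial limit of 5% (0.558) and with the putative doublets kept (0.206). All of these settings but the last named 95.7% to 96.2% of cluster 27's cells neutrophil-like, so they also joined most of it to the class. With doublets kept, 99.8% of its cells stayed in an unnamed cluster. Under all of these settings no gene of the class was called, and the cause of the loss was not tested. In all, the Il1b call held in 9 of 15 alternatives. These include the fits with 1 library left out, where a group held 1 library and only the other group gave the spread. Those fits are no support for the call. The sum of 9 neutrophil markers was also lower in the class, at 85080 and 88305 CPM with BPTES and 113432 and 119501 CPM with DMSO, and S100a8 and S100a9 made up most of it. Of the 9 markers, S100a8, S100a9, G0s2 and Ly6g were lower with BPTES without overlap, Cxcr2 was higher without overlap, and Csf3r, Retnlg, Mmp9 and Hdc overlapped. G0s2 was 3359 and 3371 CPM against 4579 and 4338 CPM, and Ly6g was 26.3 and 50.1 CPM against 92.3 and 76.9 CPM. Of the 32 marker lists, 12 did not overlap between the groups in this class. The sum of 8 AT2 cell markers was higher, at 512 and 826 CPM against 129 and 290 CPM, and AT2-like cells themselves numbered 401 and 414 against 125 and 245. The sum of 10 interstitial macrophage markers was 268 and 257 CPM against 199.6 and 184 CPM. Apoe carried most of the difference (129 and 119 CPM against 73.1 and 64.7 CPM). Csf1r was also higher without overlap (111 and 111 CPM against 97.6 and 92.0 CPM), while C1qa, C1qb and Cx3cr1 overlapped. The sum of 8 mature dendritic cell markers was 269 and 243 CPM against 189.7 and 189.5 CPM. The part of these marker sums in the Il1b result was not tested.

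Il1rn was 245 and 283 CPM with BPTES and 303 and 346 CPM with DMSO in the same cells, with no overlap, and was not called (log2 fold change -0.29, SE 0.10, edgeR adjusted p = 0.201). Il1r2 was 5002 and 3855 CPM against 5091 and 5251 CPM and was not called (-0.22, SE 0.11, edgeR adjusted p = 0.341). Il18 was 43.6 and 38.6 CPM against 44.7 and 50.9 CPM and was not called (edgeR adjusted p = 0.487). Of the 10 genes, 6 did not overlap between the groups in this class, where 47.0% of all genes did not.

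Of 44 pathway genes tested in neutrophil-like cells, 5 fell and none rose, in a class where 2.24% of all genes were called and 153 of those 205 calls were lower. Il1rap, the IL-1 receptor partner, was 877 and 826 CPM with BPTES and 1180 and 1235 CPM with DMSO (log2 fold change -0.50, SE 0.07, edgeR adjusted p = 0.0172). Nlrp3, the inflammasome sensor, was 762 and 783 CPM against 1084 and 1025 CPM (-0.45, SE 0.07, edgeR adjusted p = 0.0219). Nfkbiz, a nuclear cofactor of NF-kappa-B induced by IL-1, was 1285 and 1287 CPM against 1728 and 1587 CPM (-0.37). These genes were read in the same class as Il1b, beside the same marker sums. Socs3, a feedback inhibitor of IL-6 family signaling, was 104 and 91.4 CPM against 138 and 154 CPM (-0.58), and Il18rap was 263 and 265 CPM against 348 and 346 CPM (-0.39). The median log2 fold change of the 44 was -0.04, beside 0.0021 over all genes tested in the class, and that of the 10 cytokine and receptor genes was -0.22. None of the 5 calls held with cluster 27 added (edgeR adjusted p = 0.506 to 0.717), at resolutions 0.5 and 2 (0.471 to 0.717), with the 10 genes among the variable genes (0.444 to 0.714), with the 5% mitochondrial limit (0.324 to 0.615), with doublets kept (0.155 to 0.319) or under a replicate block (0.0501 to 0.0889). The calls of Il18rap and Socs3 were also lost without the first DMSO library (edgeR adjusted p = 0.178 and 0.0679) and without the second (0.150 for both). Those of Nlrp3 (0.0926) and Nfkbiz (0.170) were lost without the first, and that of Il1rap (0.0503) without the second.

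**Figure D3:**
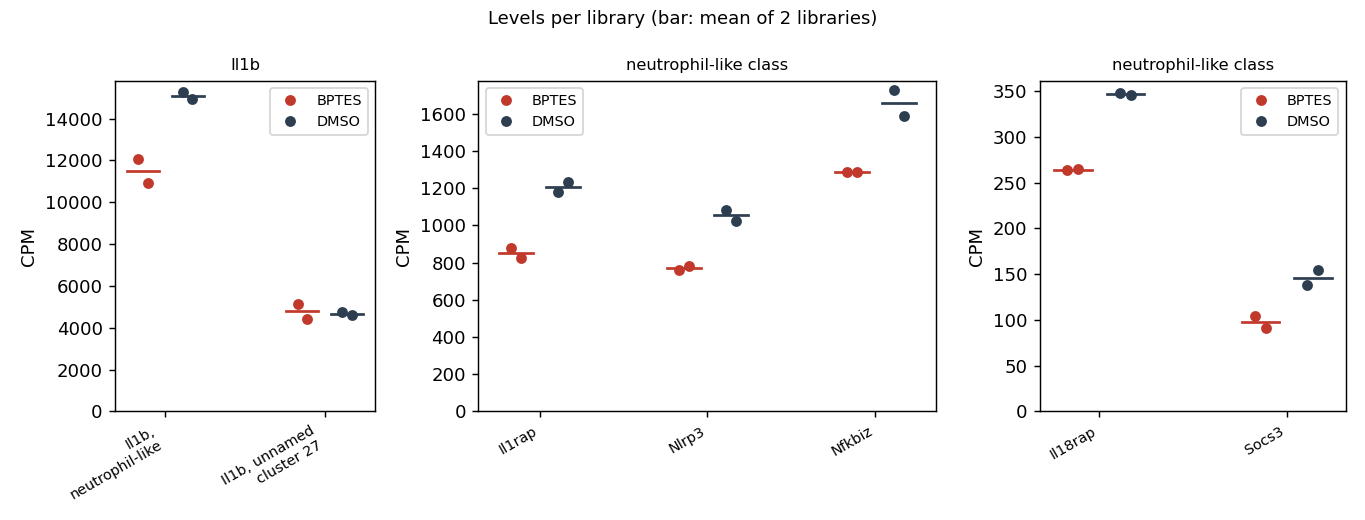
Level per library (y axis, CPM from 0) of Il1b in neutrophil-like cells and in unnamed cluster 27, and of the 5 pathway genes called in neutrophil-like cells; points are libraries and bars are means of 2. Both BPTES libraries lie below both DMSO libraries for each gene in the neutrophil-like class, while Il1b in cluster 27 overlaps between groups.

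Osm rose in interstitial macrophage-like cells. The cluster was led by C1qb, C1qa and C1qc and also by Mmp12 and Arg1, and held 234 and 299 cells with BPTES and 92 and 171 with DMSO. Its Osm level was 65.9 and 68.2 CPM with BPTES and 39.5 and 37.0 CPM with DMSO, with no overlap. The log2 fold change was 0.82 (SE 0.11, edgeR adjusted p = 0.0434), where 0.571% of 12084 genes were called and 0.314% were higher and 0.257% lower. The call was lost without the second BPTES library (edgeR adjusted p = 0.102) and without the second DMSO library (0.0609). It was also lost at a clustering resolution of 2 (0.0800), with putative doublets kept (0.371) and with a mitochondrial limit of 5% (0.0858). The log2 fold change ran from 0.66 to 0.86 over the 13 alternatives. Thinned shares of cells with an Osm UMI were 12.8% and 12.8% with BPTES and 7.95% and 6.47% with DMSO, against 0.0740% to 0.278% in general capillary endothelium-like cells. Unthinned shares were 46.2%, 56.2%, 31.5% and 33.3%. The sum of 8 classical monocyte markers in these cells was 2798 and 2768 CPM with BPTES and 1589 and 1756 CPM with DMSO, 1.66-fold higher, against 6684 CPM in classical monocyte-like cells, and Fn1 carried the difference. The sum of 8 B cell markers was 147 and 183 CPM against 446 and 644 CPM, and that of 8 natural killer cell markers was 28.4 and 4.57 CPM against 99.4 and 51.2 CPM. The class's own 10 markers summed to 11927 and 11742 CPM with BPTES and 12371 and 14462 CPM with DMSO, and C1qa was 1684 and 1655 CPM against 2373 and 2432 CPM. The sum of 10 alveolar macrophage markers overlapped between the groups, at 776 and 749 CPM with BPTES and 644 and 1095 CPM with DMSO. Among its genes, Marco was lower with BPTES (0.255 and 0.0972 CPM against 47.2 and 22.9 CPM), while Ear2 (177 and 164 CPM against 86.3 and 115 CPM) and Plet1 (20.6 and 19.7 CPM against 0 and 9.99 CPM) were higher. Of the 32 marker lists, 16 did not overlap between the groups in this class. The median depth was 30035 and 29970 UMIs with BPTES and 25112.5 and 24408 UMIs with DMSO. The part of these values in the Osm result was not tested.

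In the other Osm-rich classes the gene was not called. It was 183 and 210 CPM with BPTES and 138 and 163 CPM with DMSO in classical monocyte-like cells (log2 fold change 0.39, edgeR adjusted p = 0.178), where 0.0246% of genes were called. In alveolar macrophage-like cells it was 216 and 166 CPM against 99.2 and 122 CPM (0.77, edgeR adjusted p = 0.740), in a class with 32 cells in its smallest library. In neutrophil-like cells the order was turned, with 170 and 161 CPM against 196 and 232 CPM (-0.37, edgeR adjusted p = 0.115). That order depended on where the class was drawn. With cluster 27 added, Osm was 158 and 184 CPM with BPTES and 180 and 178 CPM with DMSO, the groups overlapped, and the log2 fold change was -0.07 (edgeR adjusted p = 0.897). The difference in treatment effect between interstitial macrophage-like and neutrophil-like cells was tested with a class-by-treatment term added after the data had been seen. The pair was flagged because its Osm groups lay on opposite sides. The adjusted p does not correct for that choice and is given as a description. The difference was 1.25 on the log2 scale (SE 0.18, edgeR adjusted p = 0.00655), where 1.08% of 12216 genes were called. The same test called 0.0594% of genes for alveolar macrophage-like and 0.0324% for classical monocyte-like against neutrophil-like cells, and Osm was not among them. Against neutrophil-like cells with cluster 27 added, the difference for interstitial macrophage-like cells was 0.91 (SE 0.14) and was not called (edgeR adjusted p = 0.0674).

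**Figure D4:**
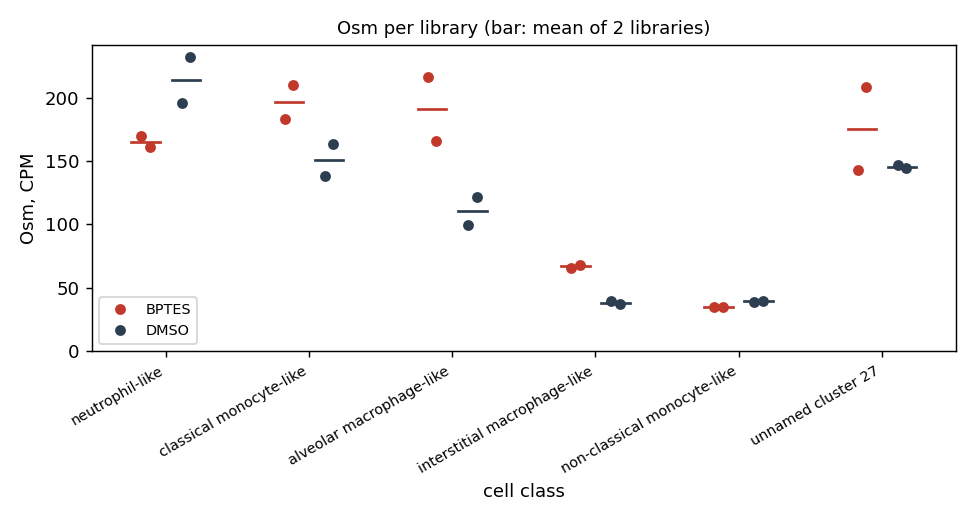
Osm level per library (y axis, CPM from 0) in 5 myeloid classes and unnamed cluster 27; points are libraries and bars are means of 2. BPTES libraries lie above DMSO libraries in interstitial macrophage-like cells (65.9 and 68.2 against 39.5 and 37.0) and below them in neutrophil-like cells.

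The ligands Tnf, Il1a and Il1b lay on the lower side in interstitial macrophage-like cells without passing the test. Tnf was 64.7 and 56.8 CPM with BPTES and 122 and 92.9 CPM with DMSO (log2 fold change -0.81, SE 0.15, edgeR adjusted p = 0.0788). Il1a was 24.98 and 36.3 CPM against 47.7 and 53.3 CPM (-0.72, SE 0.20, edgeR adjusted p = 0.149). Il1b was 1454 and 1318 CPM against 3005 and 1684 CPM (-0.76, SE 0.24, edgeR adjusted p = 0.206), and the first DMSO library stood far above the rest. The groups did not overlap for any of these 3 genes. Of the 10 genes in this class 6 did not overlap, 4 of them lower with BPTES, where 48.6% of all genes tested in the class did not overlap and 23.7% did so on the lower side. Tnf was called in 5 of 13 alternatives: DESeq2 (adjusted p = 0.00465), no filter on low counts (1.54e-06), a replicate block (0.0358), and without the first BPTES or the second DMSO library. The last 2 fits had 1 library in a group, so only the other group gave the spread. Il1b was called in 2 of 13, with no filter (edgeR adjusted p = 1.52e-09) and without the second DMSO library, again a fit with 1 library in a group. Its log2 fold change ran from -1.11 to -0.28, the latter without the first DMSO library. Il1a was called in 1 of 13, with no filter (edgeR adjusted p = 8.9e-04). Over all genes of the class, 69 were called in the main fit. That number rose with DESeq2, with no filter and with the block, as given in the section on processing. The calls of Tnf, Il1b and Il1a under those settings are therefore not read as support. Over the 10 genes in this class the median log2 fold change was -0.22, beside -0.0012 over all genes tested, and Osm was the only one called. Thinned shares of cells with a Tnf UMI were 15.9% and 13.8% with BPTES and 21.6% and 26.5% with DMSO, against 0.150% to 0.296% in general capillary endothelium-like cells.

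**Figure D5:**
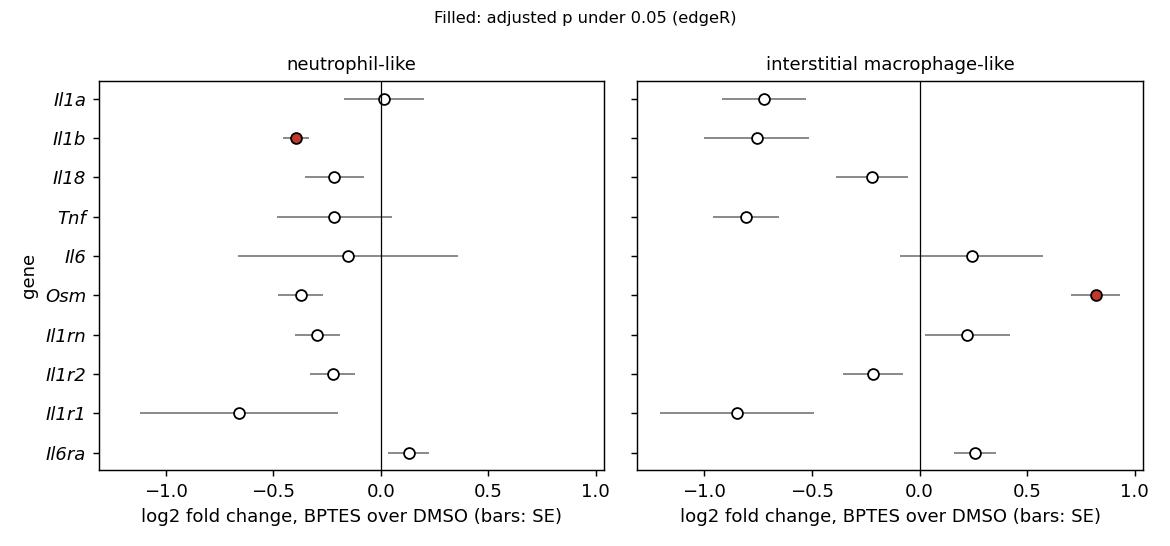
Log2 fold change of BPTES over DMSO (x axis, bars are standard errors) for the 10 genes in neutrophil-like and interstitial macrophage-like cells; filled points passed the edgeR test at an adjusted p under 0.05. Il1b in neutrophil-like cells (-0.39) and Osm in interstitial macrophage-like cells (0.82) are the 2 filled points.

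None of the fibroblast values of Il6 or Il1r1 was called. Il6 in adventitial fibroblast-like cells differed by -0.06 (SE 0.13, edgeR adjusted p = 0.861), and 0.0% of 14852 genes were called in that class. In alveolar fibroblast-like cells Il6 was 272 and 306 CPM with BPTES and 209 and 257 CPM with DMSO (0.31, SE 0.11, edgeR adjusted p = 0.178), where 0.342% of genes were called, and the sign turned with the 5% mitochondrial limit (-0.17), with doublets kept (-0.32) and at resolution 2 (-0.10). The values of its 2 clusters had opposite signs, with -0.39 in cluster 1 (edgeR adjusted p = 0.112) and 0.26 in cluster 5 (edgeR adjusted p = 0.418), neither called. The groups overlapped in cluster 5, and the difference between the clusters was not tested. Cluster 5, the one higher in Il6, held 861 and 1018 cells with BPTES and 591 and 772 with DMSO, against 1659, 1690, 2178 and 2327 in cluster 1. The part of these proportions in the class value was not tested. Il1r1 in the class was 219 and 269 CPM against 210 and 197 CPM (0.26, edgeR adjusted p = 0.207). In adventitial fibroblast-like cells it was 416 and 378 CPM against 518 and 394 CPM (-0.20, edgeR adjusted p = 0.567), a sign that turned under 5 alternatives, with values of 0.27 to 0.32.

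Il6ra was 330 and 320 CPM with BPTES and 272 and 273 CPM with DMSO in classical monocyte-like cells, with no overlap and no call (0.25, SE 0.07, edgeR adjusted p = 0.171). Il1r1 in T cell-like cells, chosen after its values were seen, was 51.4 and 30.3 CPM with BPTES and 12.4 and 12.3 CPM with DMSO (1.72, SE 0.24), and was not called (edgeR adjusted p = 0.167). It was called in 5 of 14 alternatives: DESeq2 (adjusted p = 4.7e-09), no filter on low counts (5.03e-41), a replicate block (0.0081), and without the first or the second BPTES library. In the fits without a BPTES library only the DMSO libraries gave the spread, so those calls are no support. The main fit called 0.0% of 12845 genes in this class. The shares over all its genes under the other settings are not given here, so those calls are not read as support either. Nearly all Il1r1 UMIs of T cell-like cells came from cluster 15, led by Ctla4, Cd5 and Themis, at 135 and 87.6 CPM against 32.1 and 31.4 CPM. The other clusters of the class, 17 and 19, had 2.65 and 2.19 CPM on average.

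In their other leading classes the genes were not called either. In alveolar macrophage-like cells, Il18 was 297 and 365 CPM with BPTES and 431 and 331 CPM with DMSO (-0.19, edgeR adjusted p = 0.857). Il1a there was 48.4 and 66.6 CPM against 30.9 and 72.1 CPM (0.07, edgeR adjusted p = 0.989). Il1rn was 70.7 and 104.8 CPM against 159 and 83.4 CPM (-0.40, edgeR adjusted p = 0.847), and Tnf was 31.1 and 53.7 CPM against 72.5 and 42.5 CPM (-0.36, edgeR adjusted p = 0.871). The groups overlapped for all 4 genes in this class, the smallest of the myeloid classes described here. In cDC2-like cells, Il1b was 1410 and 1451 CPM against 1509 and 1163 CPM (0.10, edgeR adjusted p = 0.875). Il1r2 was 621 and 478 CPM against 561 and 463 CPM (0.10, edgeR adjusted p = 0.897), and Tnf was 37.6 and 68.2 CPM against 30.6 and 47.6 CPM (0.42, edgeR adjusted p = 0.762). These 3 genes overlapped as well. In classical monocyte-like cells, Il1r2 was 153 and 174 CPM against 216 and 215 CPM, with no overlap (-0.40, SE 0.09, edgeR adjusted p = 0.115), and Il18 was 35.1 and 37.2 CPM against 37.99 and 36.2 CPM (-0.03, edgeR adjusted p = 0.880). Il6ra was 318 and 289 CPM against 248.8 and 266 CPM in non-classical monocyte-like cells (0.23, edgeR adjusted p = 0.408). In interstitial macrophage-like cells it was 207 and 204 CPM against 178 and 166 CPM (0.26, edgeR adjusted p = 0.267). BPTES libraries were thus the higher ones in all 3 leading classes of Il6ra, without a call. These classes come from the same 4 libraries and are not independent. Between 20.1% and 24.9% of all genes tested in each of them were also higher without overlap. Il1rn in interstitial macrophage-like cells was 57.6 and 87.1 CPM against 60.3 and 63.6 CPM and overlapped (0.22, edgeR adjusted p = 0.640). In peribronchial fibroblast or myofibroblast-like cells, Il1r1 was 194 and 220 CPM against 152 and 164 CPM, with no overlap (0.39, edgeR adjusted p = 0.384), and Il6 was 150 and 202 CPM against 159 and 192 CPM (0.01, edgeR adjusted p = 0.993).

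Outside neutrophil-like cells, 6 pathway genes were called among the 841 pathway tests, of which 11 passed in all, 1 higher and 10 lower. In AT2-like cells, the surfactant-making alveolar epithelium, Socs3 was 187 and 188 CPM with BPTES and 402 and 333 CPM with DMSO (-0.97, edgeR adjusted p = 0.0213), and Ripk1, a kinase of TNF receptor signaling, was 59.2 and 63.4 CPM against 129 and 103 CPM (-0.90). In that class 0.145% of 13074 genes were called. Both calls were lost with doublets kept (edgeR adjusted p = 0.215 and 0.192) and without the second BPTES library (0.0579 and 0.0848), and that of Ripk1 also without the first (0.0668). Aerocyte-like cells, the non-immune source of Il1a, had lower Zfp36, an RNA-binding protein that destabilizes cytokine mRNAs (-0.49), Nfkbiz (-0.48) and Casp4 (-0.65), where 0.225% of genes were called. These 3 calls were lost without either DMSO library (edgeR adjusted p = 0.179 to 0.411), with doublets kept (0.0968 to 0.171) and with the 5% mitochondrial limit (0.0731), and that of Casp4 with DESeq2 (0.0514). Sele, the endothelial adhesion molecule E-selectin that TNF and IL-1 induce, was 25.8 and 26.7 CPM with BPTES and 12.8 and 12.5 CPM with DMSO in arterial endothelium-like cells (1.05, SE 0.12, edgeR adjusted p = 0.0300), where 0.15% of genes were called. The call was lost without the first DMSO library (edgeR adjusted p = 0.0523), with doublets kept (0.0827), and under 3 other partitions (0.0790 to 0.102).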

How the data were processed

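Each library came as 1 deposited matrix of raw UMI counts for called cells. The authors made it with Cell Ranger 8.0.1 against mm10, per the submitters' processing notes; other upstream settings are not given in the sources used here. A barcode needed 500 genes, 1000 UMIs and no more than 10% mitochondrial UMIs to stay. Simulated doublets were used to score barcodes, and the top 0.4% per 1000 barcodes were removed. Each cell was scaled to 10000 and put on a log scale, and 2000 variable genes, 40 principal components and a 15-neighbour graph gave Leiden clusters (igraph 0.11.9, resolution 1). Clusters were named from marker lists of 32 classes. UMIs were summed per library and class and put to the quasi-likelihood test of edgeR 4.0.16 under R 4.3.3 (filterByExpr, TMM, Benjamini-Hochberg adjustment over all genes of the class, two-sided). DESeq2 1.42.0, no filter, a replicate block, left-out libraries and other partitions were alternatives. With 1 library left out, its group held 1 library and only the other group gave the spread, so calls in those fits are no support. Shares of cells with a UMI were taken after thinning to 3000 UMIs, without shallower cells; with 2 libraries against 2 an exact permutation test cannot go below p = 0.333, so shares are descriptions, and they carry counting error. Fits were also run on simulated counts with a fixed spread that was not taken from these libraries, so that run is no support for the calls. The genes, the pathway and marker lists and the tests were chosen with earlier results of these data known. BPTES and DMSO values are given for a gene where it was called or in its 3 highest classes, with further values where they sit beside a called result. Standard errors of fold changes are approximate. Gene positions came from GENCODE M21, and promoter windows from RefSeq (GRCm38.p6).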

Additional observations from a re-analysis of the deposited data

Results flagged for a closer look

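The effect of BPTES on Osm was compared between myeloid classes with a class-by-treatment term in edgeR, added after the data had been seen. The contrasts were flagged because the BPTES libraries lay above the DMSO libraries in 1 class and below them in the other. That order was therefore fixed by the choice and is no support. The adjusted p-values do not correct for the choice and are given as a description. Interstitial macrophage-like cells exceeded neutrophil-like cells by 1.25 on the log2 scale (edgeR adjusted p = 0.00655), with both BPTES libraries above both DMSO libraries in the former and below them in the latter. The neutrophil-like side depended on where the class was drawn: with unnamed cluster 27 added, Osm was 158 and 184 CPM with BPTES and 180 and 178 CPM with DMSO, so the groups overlapped, and the contrast was 0.91 and no longer called (edgeR adjusted p = 0.0674). The same contrast was 0.742 for classical monocyte-like against neutrophil-like cells (edgeR adjusted p = 0.0804) and 1.21 for alveolar macrophage-like against neutrophil-like cells (edgeR adjusted p = 0.137). In these 2 contrasts the libraries also lay on opposite sides, and the adjusted p missed the threshold. Against neutrophil-like cells with cluster 27 added, the last 2 contrasts were 0.438 (edgeR adjusted p = 0.540) and 0.887 (edgeR adjusted p = 0.709). Both classes of a contrast came from the same 4 libraries, and the library was a block in the fit.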

How the results depend on the processing

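Of 145 tests of the 10 genes in 21 classes, 2 were called. The count was 6 with DESeq2, 23 with no filter on low counts, 3 to 7 when 1 library was left out, 0 with a mitochondrial limit of 5%, with doublets kept and at resolutions 0.5 and 2, 1 with the 10 genes among the variable genes, and 1 with clusters 10 and 27 joined. The pathway genes gave 11 calls, against 30 with DESeq2, 84 with no filter, 7 to 29 with 1 library left out, 3 with the 5% limit, 1 with doublets kept, 7 at resolution 0.5, and 6 each at resolution 2, with the 10 genes among the variable genes and with clusters 10 and 27 joined. In all cells, DESeq2 called 1 of the 10 and edgeR 0. DESeq2 and the fits with no filter started from every gene with a count, so their calls are not out of the 145. The shares over all genes in the 21 classes under the alternatives, the replicate block among them, are not given here. The counts are therefore not read as a result on the 10 genes or the pathway genes. All genes called in neutrophil-like cells numbered 205, against 354 with DESeq2, 690 with no filter, 65 to 584 with 1 library left out, and 0 under the 5% limit, doublets kept, resolutions 0.5 and 2, the 10 genes among the variable genes, and clusters 10 and 27 joined. In interstitial macrophage-like cells they numbered 69, against 348 with DESeq2, 1218 with no filter, 81 to 320 with 1 library left out, 4 with the 5% limit, 1 with doublets kept and 0 at resolution 2. At resolution 0.5 this class was unnamed and gave no value. Under the 5% limit, resolutions 0.5 and 2 and the 10 genes among the variable genes, 95.7% to 96.2% of cluster 27's cells were named neutrophil-like. The causes of the shifts in calls were not tested.

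Replicate numbers were not taken to pair the libraries, as the labels give no shared animal or batch. Each gene's log level was also taken as its deviation from the group mean. These deviations correlated between the first BPTES and first DMSO libraries at -0.0426 in neutrophil-like and -0.103 in interstitial macrophage-like cells. With the replicate block, calls numbered 7 for the 10 genes, 25 for the pathway genes, 54 for all genes in neutrophil-like cells and 181 in interstitial macrophage-like cells. Il1b in neutrophil-like cells (adjusted p = 0.0425 with the block) and Osm in interstitial macrophage-like cells (0.0399) were still called, and the 5 pathway genes called in neutrophil-like cells were not (adjusted p = 0.0501 to 0.0889 with the block).

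Values that turned sign were those of genes that were not called. In adventitial fibroblast-like cells, the Il1r1 log2 fold change of -0.20 became 0.30 with the 5% limit, 0.32 with doublets kept, 0.28 at resolution 2, 0.29 with seed 1 and 0.27 with the 10 genes among the variable genes, and the Il6 value of -0.06 became 0.044, 0.013, 0.035 and 0.023 under the same settings other than resolution 2, and -0.23 to 0.12 with 1 library left out. In alveolar fibroblast-like cells, Il6 went from 0.31 to -0.17 with the 5% limit, -0.32 with doublets kept and -0.10 at resolution 2. In peribronchial fibroblast or myofibroblast-like cells, Il6 was -0.0021 with the block, -0.044 with the 5% limit and -0.23 to 0.21 with 1 library left out. Leaving out 1 library gave -0.38 to 0.0034 for Il18, -0.32 to 0.90 for Il1a, -0.85 to 0.085 for Il1rn and -0.85 to 0.016 for Tnf in alveolar macrophage-like cells. It gave -0.079 to 0.29 for Il1b, -0.10 to 0.28 for Il1r2 and -0.067 to 0.79 for Tnf in cDC2-like cells, -0.077 to 0.0097 for Il18 in classical monocyte-like cells and -0.11 to 0.49 for Il1rn in interstitial macrophage-like cells. Tnf in cDC2-like cells was -0.022 with the 5% limit, and Il18 in classical monocyte-like cells was 0.0001 with doublets kept. The BPTES minus DMSO difference in UMI-positive cells, in percentage points, was 0.241 points for Il1a in aerocyte-like cells, and became -1.19 points with no thinning, -1.004 points at 5000 UMIs and -0.784 to 1.27 points with 1 library left out. For Il6 in adventitial fibroblast-like cells it was 2.38 points, and -0.843 to 5.60 points with 1 library left out. Among values of single genes, 468 kept their direction and side of the threshold, 76 kept their direction and lost the call, 23 kept it and gained one, and 31 turned sign. The gained calls were 5 for Il1r1 in T cell-like cells and 5, 2 and 1 for Tnf, Il1b and Il1a in interstitial macrophage-like cells. Those of Il1r1, Tnf and Il1b include fits with 1 library in a group, where only the other group gave the spread. In neutrophil-like cells, Osm was called in 3 of 15 alternatives, Il1r2 in 2 and Il1rn in 1. In classical monocyte-like cells Il1r2 was called in 2 and Osm in 1, and Osm in alveolar macrophage-like cells in 1. The alternatives of these genes also include fits with 1 library in a group. Calls over all genes rose under several alternatives in neutrophil-like cells, and those in the monocyte-like and alveolar macrophage-like classes are not given here. None of the 23 gained calls is read as a result.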
